A study of Mus musculus with 4 samples.

Results

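Circular RNAs (circRNAs) with an identifier in circBase, a public catalogue of circRNAs, were described here for genes that gave many of them. The members were circRNAs that the deposited table lists as sense-overlapping, that is, as lying on the strand of an annotated gene, that carry a circBase identifier, and whose host gene has 5 or more circRNAs of any type in the table. These hosts are called hotspot genes below. Of 4295 circRNAs listed, 512 were members, and they came from 133 host genes. A further 4 genes had 5 or more listed circRNAs but no member. The members were compared with 1524 sense-overlapping circBase circRNAs of genes with fewer listed circRNAs and with 1806 sense-overlapping circRNAs that circBase does not list. The samples' values entered the choice only through the listing, since a circRNA is listed only where a sample held 2 or more reads. A gene with more junction reads can thus be listed with more circRNAs. Across the limit, circBase circRNAs of genes with 4 listed circRNAs had a median of 5 reads (215 circRNAs) and those of genes with 5 had a median of 6 (143 circRNAs).

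RNA came from C3H10T1/2, a mouse cell line used as a model of mesenchymal stem cells (MSCs). The untreated group held 2 samples, replicates 1 and 2. The 5-AZA group held 2 samples, replicates 101 and 102, listed with 20 μmol/L of 5-azacytidine (5-AZA, a cytidine analogue that lowers DNA methylation) for 72 hours and then 21 days in fresh medium. The labels give the untreated cells no time in culture, so treatment and time cannot be told apart. The study calls the samples of a group biological repeats, but the labels do not say whether they were separate cultures. If they were not, p-values measure only the spread between these samples, which may be technical. In bulk samples fewer cells of a type and less RNA per cell cannot be told apart.

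A circRNA forms by back-splicing, in which the donor at the 3′ end of an exon is joined to an acceptor that lies upstream of it, so that the exons between them close into a ring without a cap or a poly(A) tail. Back-splicing uses the same splice sites as the linear mRNA, is often favoured by paired repeats in the flanking introns, and competes with linear splicing of the same transcript. The ring resists exonucleases, and many circRNAs therefore outlast the mRNA of their gene. A gene can give several rings that differ in acceptor, donor or both. Only reads across the back-spliced junction tell a ring from the linear mRNA, and these are few.

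The authors deposited RPM values, that is, junction reads scaled to the total reads of the library. A single read was worth 0.0106 to 0.0108 RPM, and 100% of the values above 0 were whole multiples of it in all 4 samples. The smallest value above 0 was 2 reads, so a value of 0 stands for fewer than 2 reads. The values are therefore given as junction reads, which compare almost directly between samples. Where 4 values are listed, they stand in the order untreated replicates 1 and 2, then 5-AZA replicates 101 and 102. The samples held 13282 and 13388 junction reads without treatment and 10905 and 10448 after 5-AZA, over all listed circRNAs. The members held 3135, 3100, 2525 and 2335 of them. Above 0 were 1813, 1851, 1567 and 1539 of the listed circRNAs. Of the members, 137 were found in untreated samples only and 110 in 5-AZA samples only. A host could thus reach the limit of 5 through circRNAs of a single group, and more were listed in the untreated samples. How far lower junction reads or FPKM of hosts after 5-AZA go with that choice was not tested. The labels name genome build mm9, whereas all 512 members lie inside the GRCm38.p6 span of their host in RefSeq, so coordinates are given as GRCm38. All of the listed skeletal muscle markers (8 of 8) and adipocyte markers (5 of 5) were called higher after 5-AZA in the FPKM test described below. Their summed levels were 1.21 to 1.48 and 14.3 to 32.3 FPKM without treatment and 748 to 1144 and 1097 to 1497 FPKM after it. Of the 8 mesenchymal markers 7 were tested and 1 was called higher, with sums of 502 to 522 FPKM without treatment and 651 to 675 FPKM after it. At an unadjusted p below 0.05, 6 of them were higher and 0 lower. Of the 5 haematopoietic markers 3 stayed below 0.1 FPKM in all samples, 1 was called higher, and the sum was 2.78 and 3.08 against 16.6 and 16.7 FPKM. The marker called was Cd34, with 0.387 and 0.488 FPKM without treatment and 13.4 and 13.5 after it. Of the 5 proliferation markers 0 were called, and 2 were lower at an unadjusted p below 0.05. The part of these shifts in the results was not tested.

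The promoters of 3 hosts are shown because the mRNA level of these hosts passed the test between the groups, and their circRNA reads were higher or lower in the same direction. Other hosts, Nav3 and Phkb among them, also met this condition and are not shown. Glis3 encodes a zinc finger transcription factor, Gas2 a protein that links actin and microtubules, and Ezh2 the histone methyltransferase of Polycomb repressive complex 2. Each sequence runs from 250 bases before to 50 bases after a start site in RefSeq (GRCm38.p6), and capitals mark CG, the dinucleotide at which DNA is methylated. CG reads the same on both strands. The Glis3 promoter (chr19:28680028-28680327, minus strand) held 32 CG, and 9.52% of the 32851 promoters in the table held as many or more. For Gas2 an upstream start (chr7:51861765-51862064, plus strand) held 59 CG, a number that 0.10% of promoters reached, and a downstream start (chr7:51878717-51879016, plus strand) held 3, which 76.7% reached. The Ezh2 promoter (chr6:47594981-47595280, minus strand) held 31 CG, which 10.6% reached. Over the 105 hosts with an entry, 144 promoters had a median of 28 CG, against 7 for all promoters. Methylation was not measured, and the counts describe letters only.
Glis3 promoter: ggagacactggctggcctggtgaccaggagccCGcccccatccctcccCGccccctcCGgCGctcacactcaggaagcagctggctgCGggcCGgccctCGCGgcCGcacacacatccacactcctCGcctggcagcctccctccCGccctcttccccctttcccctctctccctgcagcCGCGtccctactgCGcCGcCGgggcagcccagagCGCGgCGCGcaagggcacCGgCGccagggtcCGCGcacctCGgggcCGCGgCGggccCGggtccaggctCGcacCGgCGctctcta
Gas2 upstream promoter: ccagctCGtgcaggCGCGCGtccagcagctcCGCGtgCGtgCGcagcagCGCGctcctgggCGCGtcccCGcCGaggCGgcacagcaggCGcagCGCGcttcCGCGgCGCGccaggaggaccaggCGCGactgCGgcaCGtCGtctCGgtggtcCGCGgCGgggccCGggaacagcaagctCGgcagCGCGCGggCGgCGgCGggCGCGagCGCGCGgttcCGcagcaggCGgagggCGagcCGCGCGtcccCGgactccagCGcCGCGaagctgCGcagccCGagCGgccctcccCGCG
Gas2 downstream promoter: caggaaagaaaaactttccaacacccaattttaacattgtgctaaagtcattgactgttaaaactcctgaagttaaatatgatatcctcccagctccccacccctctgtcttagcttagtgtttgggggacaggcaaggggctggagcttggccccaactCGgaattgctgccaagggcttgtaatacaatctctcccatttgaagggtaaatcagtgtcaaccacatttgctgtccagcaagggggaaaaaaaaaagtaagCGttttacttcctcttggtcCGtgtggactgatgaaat
Ezh2 promoter: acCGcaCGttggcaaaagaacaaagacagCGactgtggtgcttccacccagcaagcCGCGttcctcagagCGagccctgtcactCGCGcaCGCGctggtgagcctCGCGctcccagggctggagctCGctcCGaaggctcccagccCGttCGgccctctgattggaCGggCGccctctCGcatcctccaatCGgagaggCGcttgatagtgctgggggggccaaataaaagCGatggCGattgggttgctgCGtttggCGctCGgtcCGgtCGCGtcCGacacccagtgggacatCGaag

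Members were found in more samples and with more reads than other circRNAs of the same type. Choosing hosts by their number of listed circRNAs can favour this, since a circRNA is listed only with 2 or more reads in a sample. How much of the difference goes with that choice was not tested. Summed over samples, a member had a median of 8 reads, compared with 5 for circBase circRNAs of other genes and 3 for those not in circBase. The share found in 2 or more samples was 58.0% of the members, 47.0% of the circBase circRNAs of other genes and 11.6% of those not in circBase. All 4 samples held 109 members (21.3%), 3 samples held 88, 2 samples held 100 and a single sample held 215 (42.0%). The same hosts had 336 further sense-overlapping circRNAs that are not in circBase. These had a median of 3 reads, and 87.8% of them were found in a single sample, so circRNAs of the same genes differed with their presence in circBase. Both ends of 19 of the 336 were ends that members used, 107 shared only an acceptor with a member, 66 only a donor and 144 neither. The most abundant of them was a ring of Rbm4 (chr19:4792398-4794009) with 24, 39, 26 and 28 reads.

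**Figure D1:**
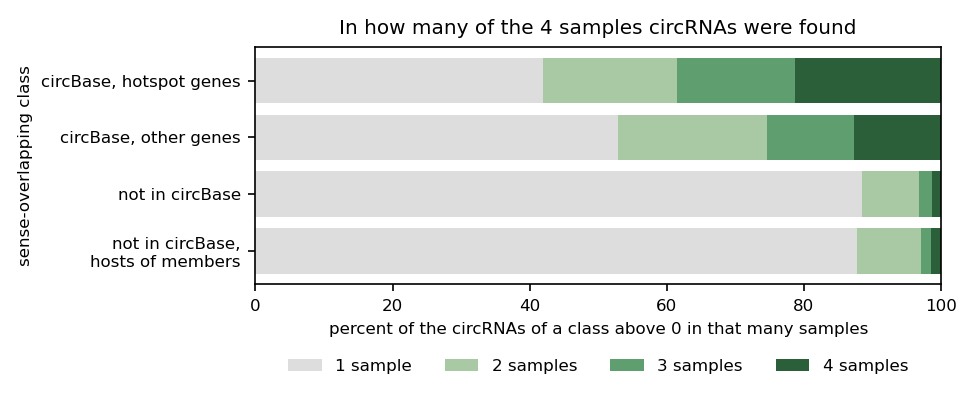
Percent of circRNAs found above 0 in 1, 2, 3 or 4 of the 4 samples (x axis), for 4 classes of sense-overlapping circRNAs (y axis). Members (top bar) were found in all 4 samples in 21.3% of cases, and circRNAs of the same hosts that circBase does not list (bottom bar) in 1.49%.

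The members spread over 19 autosomes, and none lay on the X chromosome, which held 99 of the listed circRNAs. Chromosome 17 held the most members (44), followed by chromosome 2 (40). The listed length of the ring had a median of 642 bases and the genomic distance between its ends a median of 15998 bases, from 231 to 98202. For circBase circRNAs of other genes these medians were 526 and 9634 bases. For 9 members the listed ring length equals the genomic distance. The median acceptor lay 34.0% and the median donor 54.8% along the genomic span of the listed transcript, counted from its 5′ end, and 366 of the 512 acceptors lay in its upstream part, before the midpoint.

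Rings of a host often shared an end. Of the 512 members, 411 (80.3%) used an acceptor or a donor that another member of the same host also used. The acceptor was shared by 296, the donor by 213 and both by 98. The 133 hosts used 330 distinct acceptors and 392 distinct donors. An acceptor was used by 4 or more members in 19 cases and a donor in 5. Among the 100 hosts with 3 or more members, all members shared 1 acceptor in 10 hosts and all shared 1 donor in 0. Among the 120 hosts with 2 or more members, 14 had no shared end. A host had a median of 3 members, and 38 hosts had 5 or more.

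Strn3 encodes a striatin, the regulatory subunit of a phosphatase complex, and its 7 members all started at the acceptor at position 51661713 of chromosome 12 (minus strand) and ended at 7 donors. The leading ring, mmu_circ_0000372 (chr12:51647994-51661713), had 115, 100, 94 and 86 reads. A ring whose donor lay close by, at 51648006, had 2, 2, 5 and 3 reads. The longer rings mmu_circ_0000371 and mmu_circ_0000370, which reach 39934 and 41900 bases from the acceptor, had 19, 18, 23 and 22 reads and 24, 8, 15 and 20 reads. All 7 rings together gave 171, 134, 147 and 146 reads, so the groups overlapped.

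Tlk1, a kinase active during DNA replication, had 6 members from the acceptor at 70786995 of chromosome 2 (minus strand) to 6 donors. Their sum was 43 and 2 reads in the untreated samples and 12 and 15 reads after 5-AZA, and the untreated samples thus stood further apart from each other than the groups did. Both main rings, mmu_circ_0001032 and mmu_circ_0001031, had 17 reads each in untreated replicate 1 and 0 in untreated replicate 2. In Gas2, 3 rings started at 51887912 of chromosome 7 (plus strand), downstream of both promoters shown. The shortest, mmu_circ_0001569, had 36, 24, 17 and 6 reads, and the longest, mmu_circ_0014254, had 10, 24, 11 and 12.

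**Figure D2:**
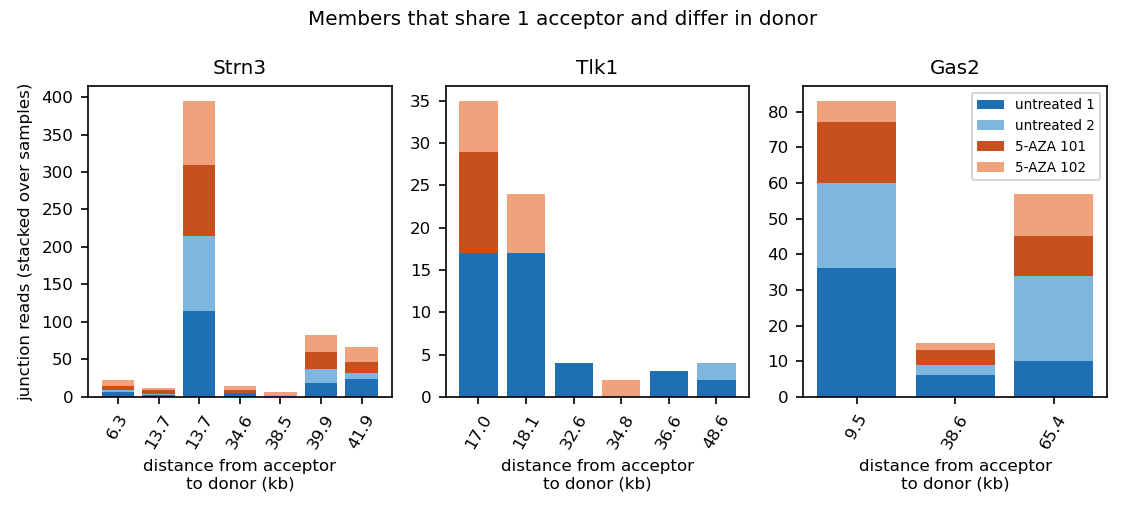
Junction reads (y axis, stacked over the 4 samples) of members of Strn3, Tlk1 and Gas2 that share 1 acceptor, ordered by the distance from acceptor to donor in kilobases (x axis). In Strn3 a single donor held 395 of 598 reads, and in Tlk1 both main rings had 17 reads in untreated replicate 1 and 0 in untreated replicate 2.

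Fer, a cytoplasmic tyrosine kinase, had the most members, 14 from 6 acceptors and 6 donors, but they gave only 24, 43, 36 and 14 reads. Its leading ring, mmu_circ_0006906, held 18.8% of these. Next came Ttc3, a ubiquitin ligase (10 members, 938 reads in all), and Adgrl3, an adhesion receptor of the latrophilin family (10 members, 102 reads). Phkb, a regulatory subunit of phosphorylase kinase, and Arhgap10, a GTPase-activating protein, had 8 each. Rabep1, an effector of endosomal Rab proteins, Zfp644, a zinc finger protein, and Crebrf, a regulator of a stress-response transcription factor, had 7 each, as Strn3 and several other hosts did. The number of members thus did not follow the number of reads in these hosts. In the 99 hosts with 2 or more members and at least 20 reads, the leading member held a median of 54.2% of the member reads, at least 50% in 72 hosts, and it was highest in each of the 4 samples in 38.

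Across the 133 hosts the members' reads ranged from 3 to 938 with a median of 36, and summed FPKM, the level of all mRNA transcripts of the gene, ranged from 2.30 to 167 with a median of 12.9. FPKM, which scales reads to transcript length and library size, was deposited per transcript. It also counts reads inside exons that rings and mRNA share. Junction level and FPKM were hardly related over the hosts, with Spearman coefficients from 0.0609 to 0.135 in the 4 samples, as a description over 133 genes of the same libraries. Rasa2, a GTPase-activating protein for Ras, had the highest ratio, 48.3, 36.1, 32.4 and 33.3 junction RPM per 100 FPKM, at an FPKM of 3.19 to 3.80. The median of all hosts was 1.07 and 1.26 without treatment and 0.863 and 0.701 after 5-AZA. App, the amyloid precursor, named here for its low ratio after the values were seen, stood at the other end, with 0 reads in both untreated samples, 2 reads in each 5-AZA sample and 132 to 155 FPKM.

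Few rings held much of the signal. The 15 members with the most reads held 32.6% of all member reads, 21 members had 100 reads or more, and 209 had 5 or fewer. The leading one was mmu_circ_0000714 of Ttc3 (chr16:94383912-94403368) with 198, 211, 154 and 116 reads. Next was mmu_circ_0000495 of Erbb2ip (chr13:103884143-103889285), a scaffold of epithelial junctions that binds a receptor tyrosine kinase, with 128 and 144 reads without treatment and 68 and 81 after it. In both rings the 5-AZA samples lay below the untreated samples. In the fit over 1360 circRNAs described below, the log2 difference between the groups was -0.61 (standard error 0.18, adjusted p = 0.233, limma) for the Ttc3 ring. For the Erbb2ip ring it was -0.86 (standard error 0.14, adjusted p = 0.119, limma).

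Several other abundant rings had close group means. The leading Rasa2 ring, mmu_circ_0001829 (chr9:96591950-96611499), had 90, 80, 80 and 90 reads. Rings of the transcription factors Zfp148 (44, 44, 57 and 34 reads), Elf2 (36, 45, 62 and 31 reads) and Smad4 (35, 35, 38 and 39 reads), the last a mediator of TGF-β signals, had group means that lay close together. The ring of Gigyf2, a repressor of translation, had 70 and 68 reads without treatment and 84 and 80 after it, and it was the most abundant ring with higher values after 5-AZA (log2 difference 0.24, standard error 0.09, adjusted p = 0.375, limma). It held nearly all reads of its host. The ring of Psd3, an exchange factor for small GTPases, had 52 and 58 against 37 and 41 reads (log2 difference -0.48, standard error 0.13, adjusted p = 0.210, limma). Scaled to each sample's total of junction reads, the difference was 0.56 for the Gigyf2 ring and -0.17 for the Psd3 ring. Rabep1 rings mmu_circ_0000282 (48, 39, 33 and 30 reads) and mmu_circ_0000281 (38, 47, 16 and 35 reads) were lower in both 5-AZA samples. Those of Zfp644 (41, 28, 24 and 29 reads) and of Lrp6, a co-receptor for Wnt (30, 37, 18 and 36 reads), overlapped.

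**Figure D3:**
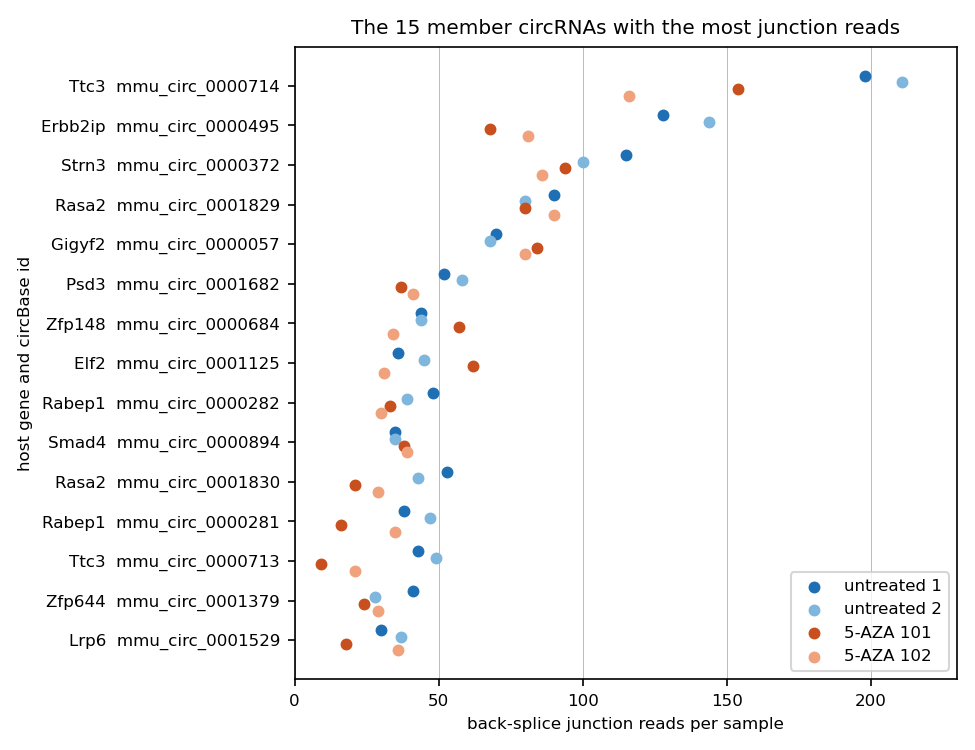
Junction reads per sample (x axis) of the 15 members with the most reads (y axis, host gene and circBase identifier), a point for each sample. The 5-AZA points of Ttc3 mmu_circ_0000714 (116 and 154 reads) and Erbb2ip mmu_circ_0000495 (68 and 81) lie left of the untreated points, whereas those of Rasa2 mmu_circ_0001829 overlap them at 80 and 90.

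Rings of the same host were also compared as shares of its reads. In Rasa2, mmu_circ_0001830 (chr9:96602713-96611499) starts at the same acceptor as the leading ring and ends at a nearer donor. It had 53 and 43 reads without treatment and 21 and 29 after 5-AZA, a log2 difference of -0.90 (standard error 0.24, adjusted p = 0.195, limma). The leading ring held 62.9% (95% Wilson interval 54.8 to 70.4) and 63.5% (54.8 to 71.4) of the Rasa2 member reads without treatment and 79.2% (70.3 to 86.0) and 75.6% (67.2 to 82.5) after 5-AZA. In Ttc3, mmu_circ_0000713 (chr16:94383912-94393174) shares the acceptor of the leading ring. It had 43 and 49 reads without treatment against 9 and 21, a log2 difference of -1.59 (standard error 0.44, adjusted p = 0.210, limma). Its sister mmu_circ_0006477 had 0, 16, 6 and 0. The leading Ttc3 ring held 71.0% and 69.0% of the host's member reads without treatment and 80.2% and 72.0% (64.7 to 78.4) after 5-AZA, and the last interval holds both untreated values. Intervals of the groups also overlapped in Rasa2, and a shift in shares was not tested in either host. The intervals cover counting error only, since PCR copies are not independent molecules.

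For the comparison of 5-AZA with untreated cells, limma was fitted to log2(RPM + 0.0213), the smallest value above 0, over the 1360 circRNAs found in at least 2 samples, of which 297 were members. The other 215 members were found in a single sample and could not be tested. Of the 297 members, 0 were called at an adjusted p below 0.05 and over 2-fold in either direction, against 0.0% of all 1360. In data simulated at this depth the fit recovered few large changes and most of its few calls were false, so the absence of calls does not show that levels were equal. The smallest adjusted p of a member was 0.119. At an unadjusted p below 0.05, 14 members were higher (4.71%) and 32 lower (10.8%), against 6.69% and 11.8% of all circRNAs tested. Groups did not overlap for 36 members higher (12.1%) and 68 lower (22.9%) after 5-AZA, against 14.0% and 24.9%. The members' shares thus lay near or below those of the whole table. The median log2 difference was -0.17 for members and -0.16 for all. Scaled to each sample's total of junction reads, these medians came to 0.000589 and -0.01. The members' split at an unadjusted p below 0.05 then turned to 19 higher and 24 lower, against 106 and 138 of all 1360. Limma with voom weights on the junction reads called 0 members. Before adjustment 20 were higher and 20 lower, against 110 and 113 of all 1360.

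The members' share of all junction reads was 23.6% and 23.2% in the untreated samples and 23.2% and 22.3% after 5-AZA. The difference of the means was -0.63 percentage points (two-sided exact permutation test, p = 0.333, the smallest p that 2 samples against 2 can give). On log2 values, the correlation between samples over the 297 tested members was 0.59 and 0.60 within the groups and 0.58 to 0.62 between them, given as a description. Summed per host it was 0.79 and 0.77 within and 0.76 to 0.80 between the groups. Samples of the same group were thus no more alike in these values than samples of different groups.

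Beyond the abundant rings, the largest differences were in rings with few reads. Lower after 5-AZA were mmu_circ_0001515 of Erc1, a scaffold of the cell cortex (9 and 11 reads, then 0 and 0), and mmu_circ_0016036 of Armc8, a subunit of a ubiquitin ligase complex (11 and 8, then 0 and 0). The same held for mmu_circ_0000921 of Rbm4, a splicing regulator (7 and 8, then 0 and 0). Rings of the histone methyltransferase Ehmt1 (9 and 3), of Zfp644 (8 and 3) and of Dcaf6, an adaptor of a ubiquitin ligase (6 and 4), were also at 0 in both 5-AZA samples. All of these had adjusted p-values of 0.119 or more, and no fold is given against groups at 0. Of the 512 members, 18 were at 0 in both 5-AZA samples but found in both untreated samples, and 14 the other way round (3.52% and 2.73%), against 3% and 2.07% of all 4295 listed circRNAs.

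In the other direction, mmu_circ_0015921 of Senp6, a SUMO protease, had 0 and 0 reads without treatment and 4 and 6 after 5-AZA. A ring of Rere, a nuclear receptor coregulator, had 0 and 0, then 2 and 8 reads, and a ring of the transcription factor Mga had 2 and 0, then 4 and 10. The repressor Zeb1, which drives epithelial-mesenchymal transition, had 2 such rings, mmu_circ_0007397 (2 and 0, then 9 and 4 reads) and mmu_circ_0007402 (2 and 0, then 2 and 8 reads). AI314180 (0 and 7, then 7 and 10 reads), the phosphodiesterase Pde5a (0 and 4, then 4 and 6 reads) and the zinc finger gene Zfp532 (7 and 4, then 7 and 18 reads) completed the set of 8. In the rings of AI314180, Pde5a and Zfp532 and in mmu_circ_0007402 a sample of each group had the same number of reads, and the groups were separate only in RPM. None of these passed the adjustment. Chosen after its values were seen, mmu_circ_0000433 of Cdk13, a kinase of RNA polymerase II, had close replicates (29 and 31, then 13 and 12 reads) and a log2 difference of -1.15 (standard error 0.16, adjusted p = 0.119, limma).

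Summed per host, members' junction RPM was tested for 127 of the 133 hosts in a fit over 766 host genes of sense-overlapping circBase circRNAs. Of the 127, 0 were called in either direction, against 0.0% of all. At an unadjusted p below 0.05, 5 were higher (3.94%) and 15 lower (11.8%), against 4.44% and 10.8%. Groups did not overlap for 14 hosts higher (11.0%) and 42 lower (33.1%), against 12.3% and 26.5%. The median log2 difference was -0.32, against -0.24 for all. Scaled to total junction reads it was -0.05 for the hosts and -0.06 for all. The hosts' split at an unadjusted p below 0.05 then turned to 8 higher and 5 lower, against 40 higher and 59 lower of all 766. The Erbb2ip rings gave 173 and 176 reads without treatment and 92 and 101 after 5-AZA (log2 difference -0.85, standard error 0.13, adjusted p = 0.263, limma). Those of Ttc3 gave 279 and 306 against 192 and 161 reads (log2 difference -0.73, standard error 0.15, adjusted p = 0.263, limma). In a fit limited to the 305 hosts above 0 in all 4 samples, the same differences of Ttc3 and Erbb2ip had adjusted p-values of 5.62e-08 and 5.05e-05 (limma), below the 2-fold limit. That restricted fit was not tested on simulated data. Over the 766 host genes without a variance trend, the adjusted p-values of Ttc3 and Erbb2ip were 0.517 and 0.441 (limma). Scaled to total junction reads, their log2 differences were -0.41 and -0.53, each with an adjusted p of 0.349 (limma). Rabep1 (102, 116, 77 and 82 reads) had a log2 difference of -0.45 and Mkln1, a subunit of the same ligase complex as Armc8, of -0.99 (47, 34, 23 and 16 reads), with adjusted p-values of 0.295 and 0.281 (limma). With the same scaling these differences were -0.13 and -0.69.

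The mRNA level of hotspot hosts, as summed FPKM, was tested in a fit of log2(FPKM + 0.1) over 13199 genes with a mean of at least 0.1 FPKM. All 133 hosts passed that limit and had a mean of at least 1 FPKM. Of them, 1 was called higher (0.752%) and 0 lower, against 13.1% and 1.32% of all genes. At an adjusted p below 0.05 and any fold, 3 hosts were higher (2.26%) and 14 lower (10.5%), against 18.6% and 5.93%. More hosts were thus lower than higher at that limit. Of all 13199 genes, which include genes below 1 FPKM, more were higher. At an unadjusted p below 0.05 the counts were 5 higher (3.76%) and 27 lower (20.3%), against 24.4% and 11.1%, and groups did not overlap for 18 higher (13.5%) and 69 lower (51.9%), against 36.8% and 25.4% of all genes. With either 5-AZA sample left out 0 of the 133 hosts passed at any fold, and the counts were 2 higher and 4 lower without untreated replicate 1 and 2 higher and 8 lower without untreated replicate 2. Of the 1102 other host genes of sense-overlapping circBase circRNAs, 6.53% were higher and 7.71% lower. The median log2 difference was -0.14 for hotspot hosts, -0.06 for other host genes and 0.05 for all genes. Centring on the sample median moved the median of all genes to -0.06 and quantile normalization moved it to -0.12, and the hotspot hosts then split into 2 higher and 38 lower (28.6%) and into 3 higher and 31 lower (23.3%). Of the other host genes 22.1% and 22.9% were then lower. Without a variance trend the lower shares were 3.76% of hotspot hosts and 3.99% of other host genes, and without untreated replicate 1 they were 3.01% and 2.99%. The median of the hotspot hosts was -0.25 after centring and -0.22 after quantile normalization, and that of other host genes was -0.17 after both. In the main fit, fewer rises and more falls than among all genes were thus seen in both kinds of host genes. The difference between these kinds was not tested. All genes also shifted with the scaling. At an unadjusted p below 0.05, 2865 of the 13199 genes were higher and 2973 lower after centring, and 2248 and 3856 after quantile normalization. For the 133 hotspot hosts these counts were 4 and 63, then 4 and 57. Lower then outnumbered higher among all genes as well. Genes of low level also entered the contrast with all genes. In a fit limited to the 10800 genes with a mean of at least 1 FPKM, the median of all genes was 0.00821. That of the hotspot hosts stayed at -0.14. Before adjustment (p below 0.05, limma), 2177 of the 10800 genes rose and 1387 fell, against 5 and 30 of the hotspot hosts. More genes thus still rose than fell, but the median of all genes lay nearer to that of the hosts.

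Glis3 was the only host called. Its FPKM was 4.17 and 3.87 without treatment and 7.44 and 9.06 after 5-AZA, a log2 difference of 1.01 (standard error 0.16, adjusted p = 0.00202, limma). Its 4 rings gave 22 and 24 reads without treatment and 36 and 45 after it (log2 difference 0.76, standard error 0.21, adjusted p = 0.263, limma). The leading ring, mmu_circ_0007672 (chr19:28530873-28540408, minus strand), had 22, 17, 26 and 35 of these. Per 100 FPKM the Glis3 rings stood at 5.68, 6.64, 5.21 and 5.29 RPM, so mRNA and ring levels were higher together. With 5-AZA replicate 101 or 102 left out the FPKM difference was 1.15 or 0.87 and no longer passed (adjusted p = 0.0660 and 0.0965, limma).

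Ltbp1, which binds latent TGF-β in the extracellular matrix, rose from 29.9 and 28.5 FPKM to 43.7 and 45.4 (log2 difference 0.61, adjusted p = 0.00214, limma), and its single member had 9, 21, 9 and 24 reads. Zeb1 rose from 18.3 and 17.3 to 21.7 and 23.9 FPKM (log2 difference 0.36, adjusted p = 0.0486, limma), and of the alternatives only quantile normalization kept the adjusted p below 0.05. Its 5 rings gave 43 and 27 reads without treatment and 44 and 45 after it.

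Falls in FPKM were found for hosts of several functions. Nav3, a microtubule-binding protein, fell from 10.3 and 7.87 to 4.91 and 4.06 FPKM (log2 difference -0.997, adjusted p = 0.00402, limma), and its ring had 5, 11, 3 and 0 reads. Gas2 fell from 43.2 and 40.8 to 26.3 and 28.4 FPKM (log2 difference -0.62, standard error 0.10, adjusted p = 0.00243, limma). Its rings gave 52 and 51 against 32 and 20 reads (log2 difference -0.97, standard error 0.29, adjusted p = 0.269, limma). Ezh2 fell from 6.25 and 5.78 to 3.78 and 3.57 FPKM (log2 difference -0.69, standard error 0.16, adjusted p = 0.0125, limma). Its rings gave 41 and 39 against 21 and 28 reads (log2 difference -0.68, standard error 0.23, adjusted p = 0.296, limma), and 126 of its 129 reads started at the acceptor at 47577667 of chromosome 6. For Gas2 and Ezh2, mRNA and ring levels thus were lower side by side, although only the mRNA passed its test. Scaled to total junction reads, the ring differences were smaller, -0.67 for Gas2 and -0.38 for Ezh2 (adjusted p = 0.420 and 0.743, limma).

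The other hosts whose FPKM fell were the guanine exchange factor Tiam2, Phkb, the aminopeptidase Lnpep, the histone chaperone subunit Ubn2, the ketone body enzyme Oxct1, the microtubule regulator Clasp2, the lipid kinase Pik3c2a, Mllt10, the adaptor Gulp1, Tlk1 and Fndc3a. Their log2 differences ran from -0.65 (Tiam2) to -0.35 (Fndc3a), with adjusted p-values from 0.00391 (Oxct1) to 0.0454 (Mllt10) in limma's test. Oxct1 was the most abundant, at 160 and 153 FPKM without treatment and 111 and 109 after it, and its rings gave 16, 17, 14 and 11 reads. Grouped by words in the GO terms listed for each gene, the counts are to be read beside 2.26% of all hotspot hosts that rose and 10.5% that fell, and 2 of 50 transcription hosts rose and 2 fell. Of 27 chromatin or histone hosts 1 rose and 2 fell. Of 31 cytoskeleton hosts 0 rose and 3 fell, of 33 vesicle, endosome or Golgi hosts 0 rose and 4 fell, of 18 kinase hosts 0 rose and 4 fell, and of 11 ubiquitin hosts none passed. The counts were 1 and 1 for 7 extracellular matrix hosts, 0 and 2 for 13 adhesion hosts, 0 and 1 for 11 RNA-binding hosts and 0 and 2 for 20 GTPase hosts. Hosts may be in several groups. For 50 transcription hosts (37.6% of hotspot hosts, against 26.1% of 639 other host genes) the median log2 difference was -0.16 in FPKM and -0.19 in junction RPM. In all 10 groups the median junction difference was below 0, on the RPM scale.

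**Figure D4:**
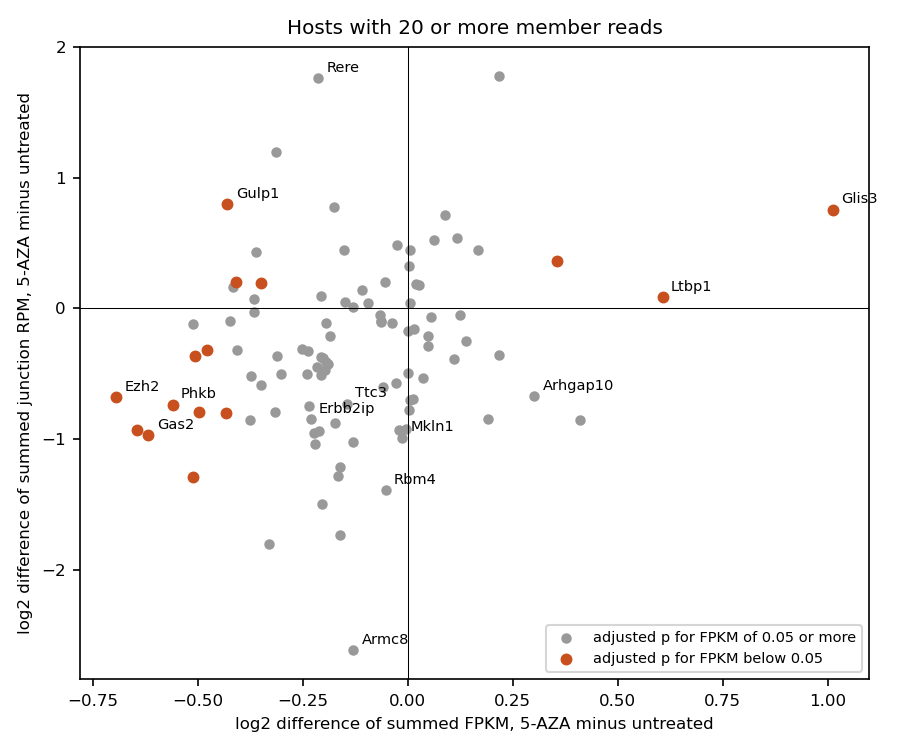
Log2 difference of summed junction RPM (y axis) against log2 difference of summed FPKM (x axis), 5-AZA minus untreated, for the 102 hosts with 20 or more member reads, a point for each host. The 15 hosts with an adjusted p below 0.05 for FPKM are coloured. Glis3 lies apart at upper right, Gas2 and Ezh2 lie at lower left, and Gulp1 and Arhgap10 lie in the quadrants of opposite sign.

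Host by host, 29 hosts had both junction reads and FPKM lower without overlap, and 5 had both higher (21.8% and 3.76%), against 9.91% and 2.9% of all 1241 host genes, many of which had few junction reads. Opposite directions were found for 2 hosts with fewer junction reads and more FPKM (1.5%, against 1.93%) and for 4 with the reverse (3.01%, against 1.53%). The difference between both changes was tested as junction RPM per FPKM, in a fit over 765 host genes that included 127 of the 133. In it 0 were called, against 0.0% of all, and the smallest adjusted p of a hotspot host was 0.695. At an unadjusted p below 0.05, 2 were higher (1.57%) and 4 lower (3.15%), against 2.35% and 4.31%. The median log2 difference was -0.18 for both the hosts and all genes tested. When scaled to total junction reads it was 0.11 for the hosts and 0.01 for all.

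Rere had the largest ratio difference upward, 1.98 (standard error 0.66, adjusted p = 0.695, limma). Its 7 rings gave 2 and 11 reads without treatment and 22 and 23 after 5-AZA, while its FPKM was 2.90 and 2.45, then 2.16 and 2.42. In a fit limited to hosts above 0 in all 4 samples it was called (adjusted p = 0.00338, limma), but without untreated replicate 1 the ratio difference came to 1.01, below those of Scmh1, Mga, Gulp1 and Zcchc11. Gulp1, an adaptor in the uptake of dying cells, had 8 and 7, then 15 and 14 reads from its single member mmu_circ_0000033 (chr1:44754343-44788542), while its FPKM fell from 74.6 and 86.3 to 59.3 and 59.8. Its ratio difference was 1.23 (standard error 0.69, adjusted p = 0.760, limma). The other upward ratios were those of Mga (1.56), Scmh1 (1.51), Zcchc11 (0.95) and Foxp1 (0.79), with 25 to 32 reads each. These sizes rested on single samples, since Foxp1 came to 0.02 without untreated replicate 1, and Scmh1 to 0.31, Mga to 0.70 and Zcchc11 to 0.56 without untreated replicate 2.

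Armc8 had the largest ratio difference downward, -2.49 (standard error 0.78, adjusted p = 0.695, limma), with 22, 23, 6 and 0 reads and 9.77, 9.14, 8.52 and 8.74 FPKM. It came to -1.47 without 5-AZA replicate 102, where Arhgef28 was lower at -2.42. Rbm4 had 19 and 23 against 5 and 9 reads (junction log2 difference -1.39) with 14.4, 13.9, 10.5 and 17.6 FPKM, a ratio difference of -1.34 (standard error 0.53, adjusted p = 0.697, limma). These reads are of its circBase rings only. The Rbm4 ring that circBase does not list had 24, 39, 26 and 28 reads, so the ratio does not describe all rings of Rbm4. Erc1 (-1.57), Pbrm1 (-1.29) and Arhgef28 (-1.27) were also lower, with 25 to 35 reads each, and without 5-AZA replicate 102 the difference of Pbrm1 turned to 0.0462 and that of Erc1 came to -0.48. Arhgef28 came to -0.11 without 5-AZA replicate 101. Among better covered hosts, Arhgap10 gave 50 and 70 reads without treatment and 39 and 34 after it, while its FPKM was 8.36 and 7.86, then 9.82 and 10.2. Its log2 differences were -0.67 in junction RPM and 0.30 in FPKM, and the ratio difference was -0.98 (standard error 0.40, adjusted p = 0.697, limma). Scaled to total junction reads, the junction difference was -0.36. Its leading ring, mmu_circ_0001692 (chr8:77344640-77365160), had 27, 32, 16 and 13 reads. The ratio differences of Mkln1 (-0.98), Erbb2ip (-0.62) and Ttc3 (-0.58) had an adjusted p of 0.760 (limma).

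**Figure D5:**
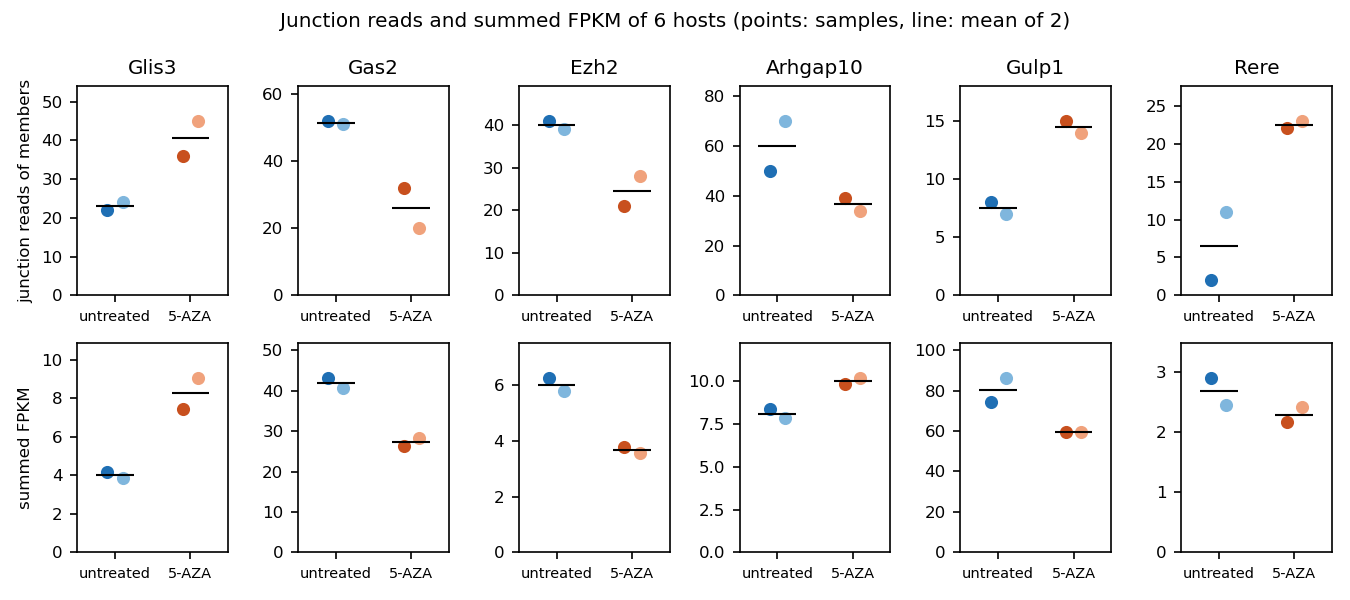
Junction reads of members (top row) and summed FPKM (bottom row) of 6 hosts, untreated samples in blue and 5-AZA samples in orange, with a line at the mean of 2 samples. Both measures were higher after 5-AZA for Glis3 and lower for Gas2 and Ezh2, whereas Arhgap10 had fewer reads and Gulp1 and Rere more reads against the direction of their FPKM.

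Regulators of circRNA formation and decay were read from the FPKM fit as a list. Of the 26 genes of the list that were tested, 1 was called higher and 0 lower, against 13.1% and 1.32% of all genes tested. The gene called was Rbm20, a splicing factor of titin in striated muscle, with 0.125 and 0.0617 FPKM without treatment and 1.21 and 1.51 after it (log2 difference 2.93, adjusted p = 0.000273, limma). At an adjusted p below 0.05 and any fold, the RNA-editing enzyme Adar (5.26 and 4.74, then 8.15 and 8.51 FPKM) and G3bp2, a stress granule protein (30.7 and 30.8, then 36.7 and 42.3 FPKM), were also higher. The splicing factor Srsf1 was lower (69.5 and 64.2, then 54.2 and 53.3 FPKM). Of all genes tested, 18.6% were higher and 5.93% lower at that limit. The back-splicing promoters Qk (59.1, 56.7, 53.8 and 55.9 FPKM) and Mbnl1 (107, 103, 92.9 and 89.0 FPKM) did not pass.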

How the data were processed

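Total RNA of 2 untreated and 2 5-AZA samples of C3H10T1/2 cells was sequenced after rRNA depletion with a stranded kit. The authors deposited circRNA values as RPM, back-spliced junction reads scaled to library size, and mRNA values as FPKM per transcript. Submitters' processing notes name Trimmomatic, HISAT2, Bowtie2 2.2.9, eXpress 1.5.1 and mm9 without roles, and the circRNA caller is not given in the sources used here. Columns of the authors' own comparisons (fold changes and p-values) and the lncRNA values were not used, and 0 columns of per-sample values were left unmapped.

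Reads were recovered as RPM divided by the value of 1 read, taken as the smallest value above 0 divided by 2, and values within 0.01 of a whole number were called whole. FPKM was summed per gene. limma 3.58.1 (R 4.3.3, lmFit and eBayes with trend) was fitted to log2(RPM + 0.0213) of circRNAs above 0 in at least 2 samples, to the same per host gene, to log2(FPKM + 0.1) of genes with a mean of at least 0.1 FPKM, and to the log2 ratio of host junction RPM to FPKM, each over the whole table with Benjamini-Hochberg adjustment. A fold change on these scales understates that of low values. A call needed an adjusted p below 0.05 and over 2-fold. Scripts were tested on simulated data. There, large changes were recovered throughout for FPKM, in part for the ratio and rarely for host junction RPM and single circRNAs, and for single circRNAs most calls were false. The simulated FPKM changes were larger than those reported for hosts, and the noise was the same for all genes. Recovery of smaller changes in FPKM was thus not tested.

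By rule, the text names the 10 hosts with the most members, the 15 members with the most reads, the 8 members highest and the 8 lowest by log2 difference among those whose groups do not overlap and whose higher group holds at least 10 reads, the 6 hosts with the largest ratio difference each way among hosts with at least 20 reads, and every member called. The rings that the study measured by qPCR were not members. A few items that the rule names are not reported here. Other genes named, the hosts past the FPKM test among them, were chosen after their values were seen. Members, lists and tests were chosen with earlier results of these data known. Alternatives were other pseudocounts, filters, scalings and left-out samples.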

Additional observations from a re-analysis of the deposited data

How the results depend on the processing

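The main analysis called 0 members and 0 hosts by junction reads or by the ratio. With circRNAs above 0 in all 4 samples, 1 member was called lower (mmu_circ_0000713 of Ttc3, adjusted p = 0.0317, limma), and 1 host was called by the ratio to FPKM (Rere), where fewer features were tested. This filter was not tested on simulated data, in which most calls of single circRNAs by the main fit were false. By FPKM 1 host was called, and the count was 2 with a pseudocount of 0.01 FPKM (Glis3 and Nav3), 0 with 1 FPKM and 0 without a filter. Leaving out a sample gave 0 to 1 calls, with 0 without 5-AZA replicate 101 and 0 without 5-AZA replicate 102, and without untreated replicate 2 the call was Nav3. Centring and quantile normalization each gave 1 call, Nav3 in place of Glis3. At any fold, the hosts past the adjusted p were 3 higher and 14 lower in the main analysis, 1 and 9 without a filter, 2 and 5 without a variance trend, 2 and 38 after centring and 3 and 31 after quantile normalization. The ratio difference of Pbrm1 ranged from -2.63 to 0.0462 with a sample left out, and it reversed at 0.0462 without 5-AZA replicate 102. The difference in the members' share of junction reads was -0.47 percentage points for genes with 8 or more circRNAs, -0.28 where only circBase circRNAs counted towards the limit, and -1.03 to -0.22 with a sample left out. The cause was not tested. Where a group keeps 1 sample, that sample is assumed to vary like the other group. Limma with voom weights was chosen after seeing the data. The planned edgeR and DESeq2 alternatives were not run, since the deposited values are RPM. Of methods made for counts, only voom was applied to the reads recovered from them. No paired analysis was possible because the groups share no replicate number. Depth limits all circRNA results, since 209 of 512 members had 5 or fewer reads.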
